A study of Mus musculus with 12 samples.

Results

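Protocadherins are cell-surface adhesion proteins of the cadherin superfamily, and the genes described here are those of mouse colorectal tumours grown in the liver. Every gene whose platform annotation gave a single symbol beginning with Pcdh was taken, and a symbol carried by several probe rows was represented by its brightest row, by the mean of 12 arrays. This gave 35 of 22180 genes. Of these, 22 belong to the beta cluster (Pcdhb1 to Pcdhb22), 1 to the gamma cluster (Pcdhga10) and 12 are non-clustered (Pcdh1, Pcdh7, Pcdh8, Pcdh9, Pcdh10, Pcdh11x, Pcdh12, Pcdh15, Pcdh17, Pcdh18, Pcdh19 and Pcdh20). The family was singled out because Pcdhb18 was among the genes furthest lower in fatty than in healthy liver under vehicle, so values of that comparison are given as a description only. On these arrays Pcdhb18 had rank 2 among 22180 genes ordered from the most negative difference.

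The study set mouse colorectal cancer tissue grown in fatty liver against such tissue grown in healthy liver, each with or without antiangiogenic treatment. The groups were fatty liver with anti-VEGF, healthy liver with anti-VEGF, fatty liver with vehicle and healthy liver with vehicle, with 3 single-colour whole-transcript arrays in each; the series' design text gives 3 mice per group. All groups received the injected cancer, and the labels name neither the line injected, the strain, the age, the diet that made the liver fatty nor the antibody. Values are deposited log2 expression levels and a difference between groups is one of log2 levels, with some given as linear ratios too.

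The beta and gamma genes stand in a row on 1 chromosome, next to the alpha genes. Each beta gene is a single exon with its own promoter, and in neurons each cell switches on a few of them, a choice that involves the insulator protein CTCF, cohesin and DNA methylation. The proteins of the clusters bind copies of themselves on neighbouring cells. The non-clustered protocadherins are separate genes, several of which bind the WAVE complex, a regulator of actin, through their cytoplasmic tails. PCDH10 and PCDH17 are known in human gastrointestinal cancers as genes silenced by promoter methylation, and PCDH12 is a protein of endothelial junctions.

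The 250 bases before the annotated start are shown for 3 non-clustered members whose levels the results below turn on, Pcdh10 for the difference between livers and Pcdh17 and Pcdh18 for single arrays; CG pairs, the sites of DNA methylation, are in capitals. The sequences are RefSeq's on GRCm38.p6, read 5′ to 3′ on the gene's strand, at chr3:45378148-45378397 (plus strand) for Pcdh10, chr14:84443313-84443562 (plus strand) for Pcdh17 and chr3:49757317-49757566 (minus strand) for Pcdh18.
Pcdh10: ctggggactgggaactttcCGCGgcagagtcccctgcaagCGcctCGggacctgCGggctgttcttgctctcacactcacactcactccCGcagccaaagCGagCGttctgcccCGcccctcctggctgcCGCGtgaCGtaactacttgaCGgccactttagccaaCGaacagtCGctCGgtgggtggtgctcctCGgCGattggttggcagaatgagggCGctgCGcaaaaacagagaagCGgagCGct
Pcdh17: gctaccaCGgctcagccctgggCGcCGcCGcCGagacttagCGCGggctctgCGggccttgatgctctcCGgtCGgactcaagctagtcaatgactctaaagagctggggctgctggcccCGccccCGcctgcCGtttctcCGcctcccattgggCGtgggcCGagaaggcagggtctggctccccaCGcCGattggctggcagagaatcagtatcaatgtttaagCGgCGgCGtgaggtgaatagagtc
Pcdh18: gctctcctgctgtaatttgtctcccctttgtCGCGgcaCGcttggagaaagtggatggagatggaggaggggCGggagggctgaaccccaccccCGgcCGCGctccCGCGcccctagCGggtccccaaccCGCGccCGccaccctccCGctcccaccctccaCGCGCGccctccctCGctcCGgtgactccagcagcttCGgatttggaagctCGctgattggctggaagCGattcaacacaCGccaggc
They held 22, 21 and 23 CG pairs. The median over 27025 such windows of mouse genes was 6, and 85.4%, 83.9% and 87.0% of the windows held fewer than these 3. The letters GGGCGG, searched on both strands, occurred once in each, as in 32.9% of all windows at least once. TATAAA, also searched on both strands, was in none of the 3 and in 13% of all windows. No methylation was measured, so these counts describe the windows only.

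Several arrays bear on every comparison. The labels call the replicates biological, yet fatty liver vehicle arrays 1 and 3, healthy liver vehicle arrays 1 and 3, and healthy liver anti-VEGF arrays 1, 2 and 3 were nearly identical, with an SD of the gene-wise difference of 0.174 to 0.199, against 0.342 to 0.542 for the other pairs within groups. P-values may therefore measure a technical spread in part, and a fit with these arrays averaged is given beside the counts. On the first principal component, which held 70.0% of the variance, fatty liver anti-VEGF array 3 (9.16) and healthy liver vehicle array 2 (-4.69) lay between the other fatty liver arrays (43.4 to 69.1) and the other healthy liver arrays (-54.5 to -50.1). The vehicle arrays 1 and 3 of both livers were high in Xist (8.10 to 10.58 on the log2 scale), against 3.89 to 4.32 on all other arrays. The labels name colorectal cancer as the tissue. Of its listed epithelial markers, Epcam, Krt19, Vil1 and Cldn7 were below the table's median of 4.93 on all 12 arrays, and Cdx2 was on both sides of it. Krt8 (9.12 to 10.82), Krt18 (6.47 to 8.36) and Lgals4 (5.03 to 5.53) were above it on all 12 arrays. The mean of 8 hepatocyte genes was 4.15 to 4.33.

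As a family the protocadherins were dim. The median of the whole table, 4.93 on the log2 scale, served as the limit above which a level was taken as measured. Of the 35 genes, 9 had a 12-array mean above it, namely Pcdhb14, Pcdhb16, Pcdhb17, Pcdhb18, Pcdhb20, Pcdhb21, Pcdhb22, Pcdhga10 and Pcdh10, and 18 were above it on 0 arrays. Among all genes 57.2% had a mean above the limit. All 35 were kept in the tests, so that none entered only through the group in which it was high. Within the beta cluster the division ran along the chromosome: Pcdhb1 to Pcdhb13 stayed between 2.63 and 4.995 on every array, whereas 7 of the 9 genes from Pcdhb14 to Pcdhb22 had means above the limit and Pcdhb15 and Pcdhb19 did not. This split into 13 and 9 genes was made after the values were seen and is used for description. The plot of the beta cluster shows it gene by gene.

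**Figure D1:**
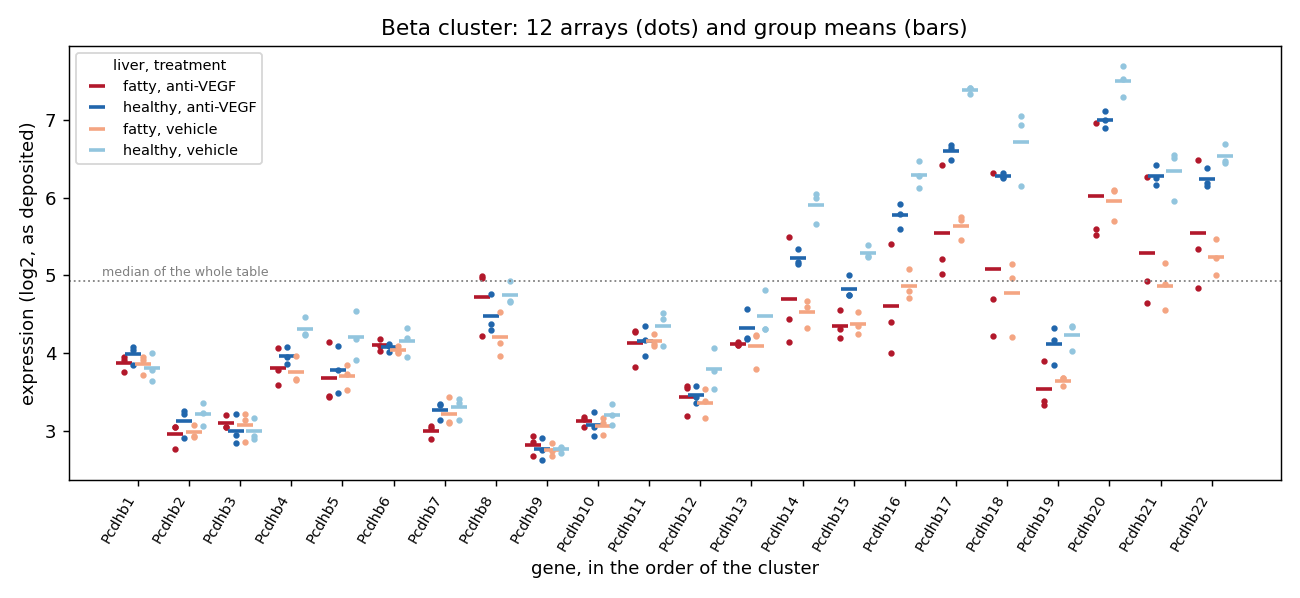
Expression (log2, as deposited) of the 22 beta cluster genes in their order along the chromosome, with a dot per array, a bar per group mean and a dotted line at the table's median of 4.93. Pcdhb1 to Pcdhb13 lie mostly under the line in all 4 groups, and from Pcdhb14 onward the fatty liver means lie below the healthy liver means.

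Fatty and healthy liver tumours were compared under anti-VEGF, the comparison that shares no array with the one behind the choice of genes. In all, 6 genes fell and 0 rose. Pcdhb15, Pcdhb16, Pcdhb17, Pcdhb19 and Pcdhb20 of the late beta cluster and Pcdh10 were lower in fatty liver by 0.48 to 1.17 on the log2 scale. Pcdhb1 to Pcdhb13, Pcdhga10 and the other 11 non-clustered genes did not pass. In limma at an adjusted p below 0.05, this made 6 of 35 lower (17.1%) and 0 higher, against a background of 14.9% lower and 10.8% higher among all 22180 genes, so the share for the family as a whole was close to that of all genes. At an unadjusted p below 0.05, 9 were lower and 0 higher, against 22.7% and 14.1% of all genes. By cluster, 5 of 22 beta genes (22.7%), 0 of 1 gamma gene and 1 of 12 non-clustered genes (8.33%) fell.

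Pcdhb16 read 4.40, 4.0 and 5.40 in fatty liver with anti-VEGF, against 5.92, 5.79 and 5.60 in healthy liver with anti-VEGF. All 3 fatty liver arrays were below all 3 healthy liver arrays, array 3 only slightly. The log2 difference was -1.17 (SE 0.28), a linear ratio of 0.444, with an adjusted p of 0.0111 in limma. Pcdhb17 read 5.02, 5.21 and 6.42 in fatty liver, against 6.64, 6.67 and 6.49 in healthy liver, again without overlap. Its difference was -1.06 (SE 0.28, limma adjusted p = 0.0185). Pcdhb20 read 5.59, 5.52 and 6.96 in fatty liver, against 7.0, 6.89 and 7.12 in healthy liver. Here fatty liver array 3 lay inside the healthy liver range, and the difference of -0.98 (SE 0.31) had a limma adjusted p of 0.0384.

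The 2 dim genes of the late cluster moved less on the log2 scale and with less spread. Pcdhb15 read 4.31, 4.19 and 4.55 in fatty liver with anti-VEGF, against 4.74, 4.75 and 5.0 in healthy liver with anti-VEGF. The groups did not overlap, and the difference was -0.48 (SE 0.12, limma adjusted p = 0.0133). Pcdhb19 read 3.39, 3.33 and 3.90 in fatty liver, against 3.85, 4.32 and 4.17 in healthy liver. Fatty liver array 3 passed the lowest healthy liver array, and the difference was -0.58 (SE 0.17, limma adjusted p = 0.0266). For both genes the mean of either group was under the limit of 4.93.

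Pcdhb18, the gene behind the choice of the family, read 4.23, 4.70 and 6.31 in fatty liver with anti-VEGF, against 6.27, 6.32 and 6.25 in healthy liver with anti-VEGF. Arrays 1 and 2 of fatty liver were far below every healthy liver array and array 3 was among them. The difference was -1.20 (SE 0.46), and with a limma adjusted p of 0.0781 it did not pass. Pcdhb21 averaged 5.28 ± 0.86 in fatty liver and 6.28 ± 0.13 in healthy liver (SD, n = 3 each; limma adjusted p = 0.0566). Pcdhb22 averaged 5.55 ± 0.85 in fatty liver and 6.24 ± 0.12 in healthy liver (limma adjusted p = 0.142), and Pcdhb14 averaged 4.69 ± 0.71 in fatty liver and 5.22 ± 0.10 in healthy liver (limma adjusted p = 0.191). For these 4 genes the spread came from fatty liver array 3, as the plot of selected genes shows for Pcdhb18.

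Pcdh10 read 5.05, 5.19 and 4.54 in fatty liver with anti-VEGF, against 5.98, 5.77 and 5.88 in healthy liver with anti-VEGF. The groups did not overlap, and here fatty liver array 3 was the lowest of all 12 arrays. The difference was -0.95 (SE 0.21), a linear ratio of 0.518, with a limma adjusted p of 0.00782. Pcdhga10, a gamma-cluster gene, averaged 6.66 ± 0.17 in fatty liver and 6.91 ± 0.05 in healthy liver (SD, n = 3 each), a difference of -0.24 that did not pass (limma adjusted p = 0.497).

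**Figure D2:**
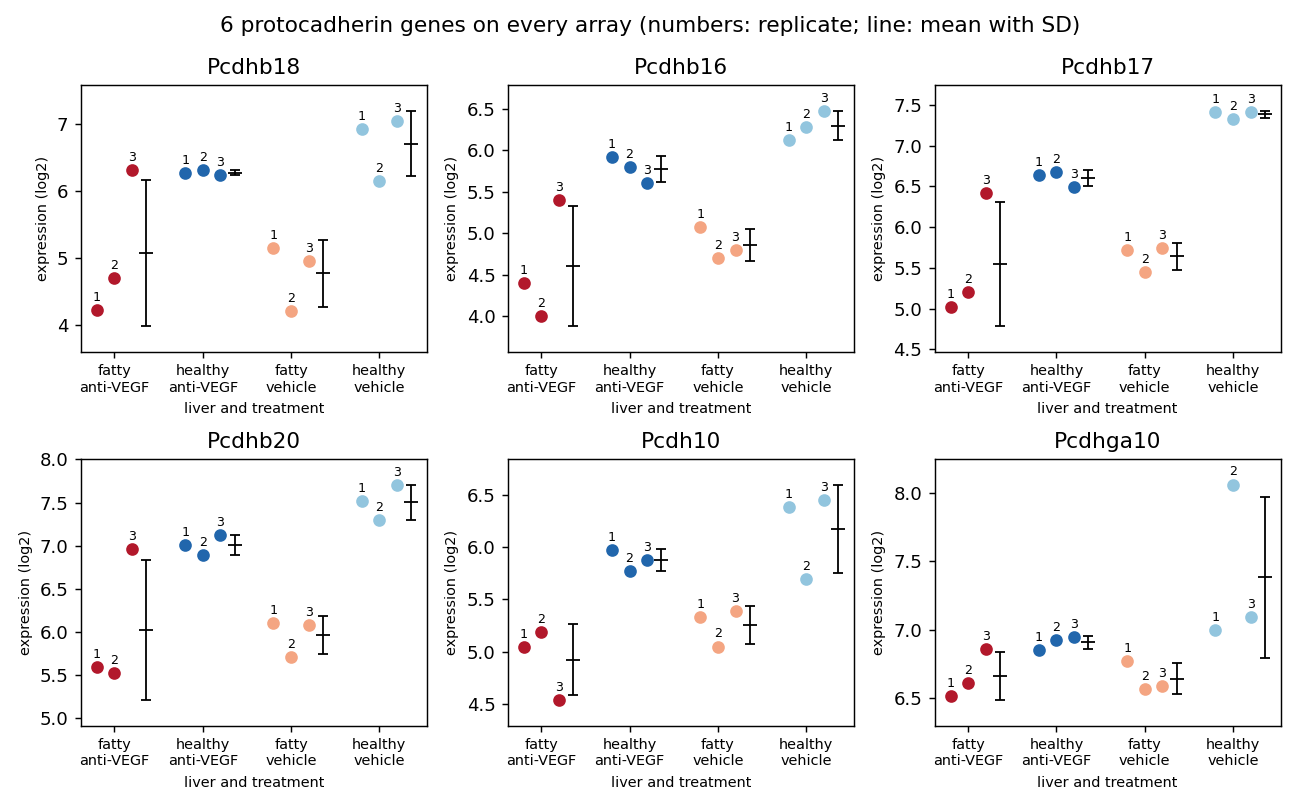
Expression (log2) of 6 genes by liver and treatment; each dot is an array numbered by its replicate, and the black bar beside a group is its mean with SD (n = 3). In fatty liver with anti-VEGF, array 3 lies well above arrays 1 and 2 for the 4 beta genes and below them for Pcdh10.

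The counts depended on single arrays. Without fatty liver anti-VEGF array 3, 10 of 35 genes fell, all 9 from Pcdhb14 to Pcdhb22 and Pcdh10, and the background was 20.7% lower. Pcdhb18 then differed by -1.81 (SE 0.31, limma adjusted p = 0.00153). Without fatty liver anti-VEGF array 2 the count was 2, where 16.7% of all genes passed in either direction. It was 3 without array 1 of that group (19.7%), and also without array 2 or array 3 of healthy liver with anti-VEGF (16.3% and 16.6%). Pcdhb16 and Pcdh10 passed in 12 of 12 fits that left out 1 array each, and Pcdhb20 in 4. With the nearly identical arrays averaged, 0 of 35 passed in limma (background 0.0721% lower and 1.75% higher), while 3 (Pcdhb15, Pcdhb16 and Pcdh10) were lower at an unadjusted p below 0.05, against 7.20% of all genes. In that fit the 3 arrays of healthy liver with anti-VEGF counted as 1, and the adjusted p of Pcdh10 was 0.268 and that of Pcdhb16 0.310.

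The late beta genes were also followed together on each array. The mean of the 9 genes from Pcdhb14 to Pcdhb22 was 4.51, 4.63 and 5.75 in fatty liver with anti-VEGF, against 5.79, 5.86 and 5.80 in healthy liver with anti-VEGF. On fatty liver arrays 1 and 2 all 9 genes were below the healthy liver range, and on array 3 only 3 were below it, 4 within it and 2 above it. The median log2 difference of the 9 genes was -0.98, that of Pcdhb1 to Pcdhb13 was -0.03, that of the non-clustered genes 0.06 and that of all genes -0.05. By position of the arrays alone, 6 of 35 genes were lower without overlap (Pcdhb7, Pcdhb13, Pcdhb15, Pcdhb16, Pcdhb17 and Pcdh10; background 25.5%) and Pcdh19 was higher without overlap (background 16.0%). Pcdhb7, Pcdhb13 and Pcdh19 did not pass limma (adjusted p of 0.106, 0.437 and 0.396).

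Markers of other cells differed between the same groups, and the averaged fit left fewer of them. The mean of the 7 measured macrophage genes was 11.47, 11.57 and 11.19 in fatty liver with anti-VEGF, against 9.07, 9.10 and 9.12 in healthy liver with anti-VEGF. All 7 rose, and 4 of them also rose with the nearly identical arrays averaged. The mean of 8 T and NK cell genes was 8.41, 7.93 and 5.56 in fatty liver, against 4.91, 5.05 and 5.01 in healthy liver, with 7 of 8 higher. Fatty liver array 3 was the lowest of its group in these genes and the highest of its group in the late beta genes. This array lay between the livers on the first principal component (9.16). Genes of other lists, such as Smc3 and Fat1, were also highest of their group on it, and a link between any of them was not tested. Of 10 endothelial genes, Kdr and Pecam1 rose, with log2 differences of 3.13 and 2.75 (limma adjusted p of 0.00981 and 0.0142), and 0 fell. The other endothelial genes went in both directions, with differences of -0.60 to 1.10, and did not pass. The median over the endothelial list was 0.52.

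In the lists of stroma and tumour markers a few genes fell and most did not pass. Of 8 fibroblast genes Pdgfra fell, with 9.64, 9.30 and 10.45 in fatty liver with anti-VEGF, against 10.69, 10.71 and 10.67 in healthy liver with anti-VEGF (difference -0.89, limma adjusted p = 0.0150). Within the fatty liver group it was highest on array 3, the array that lay between the livers on the first principal component. The other fibroblast genes were higher in fatty liver, by 0.24 to 1.61, and did not pass. The median over the fibroblast list was 0.93. Pdgfra also differed from the rest of its list among the healthy liver vehicle arrays. It read 10.98, 10.82 and 10.80 there, while the other fibroblast genes were all highest on array 2 of that group. Of 6 pericyte and smooth muscle genes 2 fell between the livers under anti-VEGF, Acta2 and Pdgfrb, with log2 differences of -1.01 and -0.73 (limma adjusted p of 0.000398 and 0.00646). On fatty liver anti-VEGF array 3, Pdgfrb was the highest of its group (10.30) and Acta2 the lowest (9.485). The others did not pass, with Rgs5 and Des higher in fatty liver and Myh11 and Tagln lower. The median over this list was -0.20. Of 8 tumour epithelium genes 2 fell, Krt8 (-0.87) and Krt18 (-1.28), and the other 6 did not pass, with differences of -0.27 to 0.24 and a median of -0.11 over the list. Of 6 measured neural and Schwann cell genes 2 fell, Tubb3 and Gap43, and 0 rose. Against these counts, 14.9% of all genes fell and 10.8% rose, and with the nearly identical arrays averaged 0 genes passed in the endothelial, T and NK cell, fibroblast, pericyte, tumour or neural lists. The part of any of these cells in the protocadherin differences was not tested. In bulk tissue, fewer cells that carry a gene and less of its RNA per cell cannot be told apart.

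Under vehicle, the comparison that chose the family, the values are given as a description. Pcdhb18 read 5.15, 4.21 and 4.96 in fatty liver with vehicle, against 6.94, 6.15 and 7.05 in healthy liver with vehicle, a log2 difference of -1.94 and a linear ratio of 0.261. Pcdhb17 read 5.72, 5.45 and 5.75 in fatty liver, against 7.41, 7.33 and 7.41 in healthy liver, a difference of -1.75 and rank 4 among all genes. In both genes the 2 groups were wide apart. Pcdhb20 read 6.10, 5.71 and 6.08 in fatty liver, against 7.52, 7.29 and 7.70 in healthy liver. Pcdhb16 read 5.08, 4.70 and 4.79 in fatty liver, against 6.13, 6.27 and 6.47 in healthy liver. These genes, too, were below every healthy liver array on every fatty liver array.

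Pcdh10 read 5.33, 5.05 and 5.39 in fatty liver with vehicle, against 6.39, 5.69 and 6.45 in healthy liver with vehicle, a log2 difference of -0.92, beside -0.95 under anti-VEGF. Pcdhb15 read 4.25, 4.35 and 4.53 in fatty liver, against 5.23, 5.25 and 5.39 in healthy liver, and Pcdhb19 read 3.68, 3.58 and 3.68 in fatty liver, against 4.35, 4.03 and 4.33 in healthy liver. Both were lower on every fatty liver array. Pcdhga10 averaged 6.64 ± 0.11 in fatty liver and 7.38 ± 0.59 in healthy liver (SD, n = 3 each), where healthy liver array 2 alone read 8.06. Pcdhb4, the 1 early beta gene counted as lower below, averaged 3.76 ± 0.17 in fatty liver and 4.31 ± 0.13 in healthy liver, both under the limit.

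Counted in the same way as above, but as a description because this comparison chose the family, 12 of 35 genes were lower in fatty liver with vehicle (Pcdhb4, Pcdhb14 to Pcdhb22, Pcdhga10 and Pcdh10) and 0 were higher, against a background of 16.5% lower and 11.5% higher. Without overlap between groups, 16 were lower and 0 higher, against 24.7% and 17.0% of all genes. The median log2 difference was -1.43 for the 9 late beta genes, -0.20 for Pcdhb1 to Pcdhb13 and -0.04 for all genes. The plot of differences sets both liver comparisons side by side; they share no array.

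**Figure D3:**
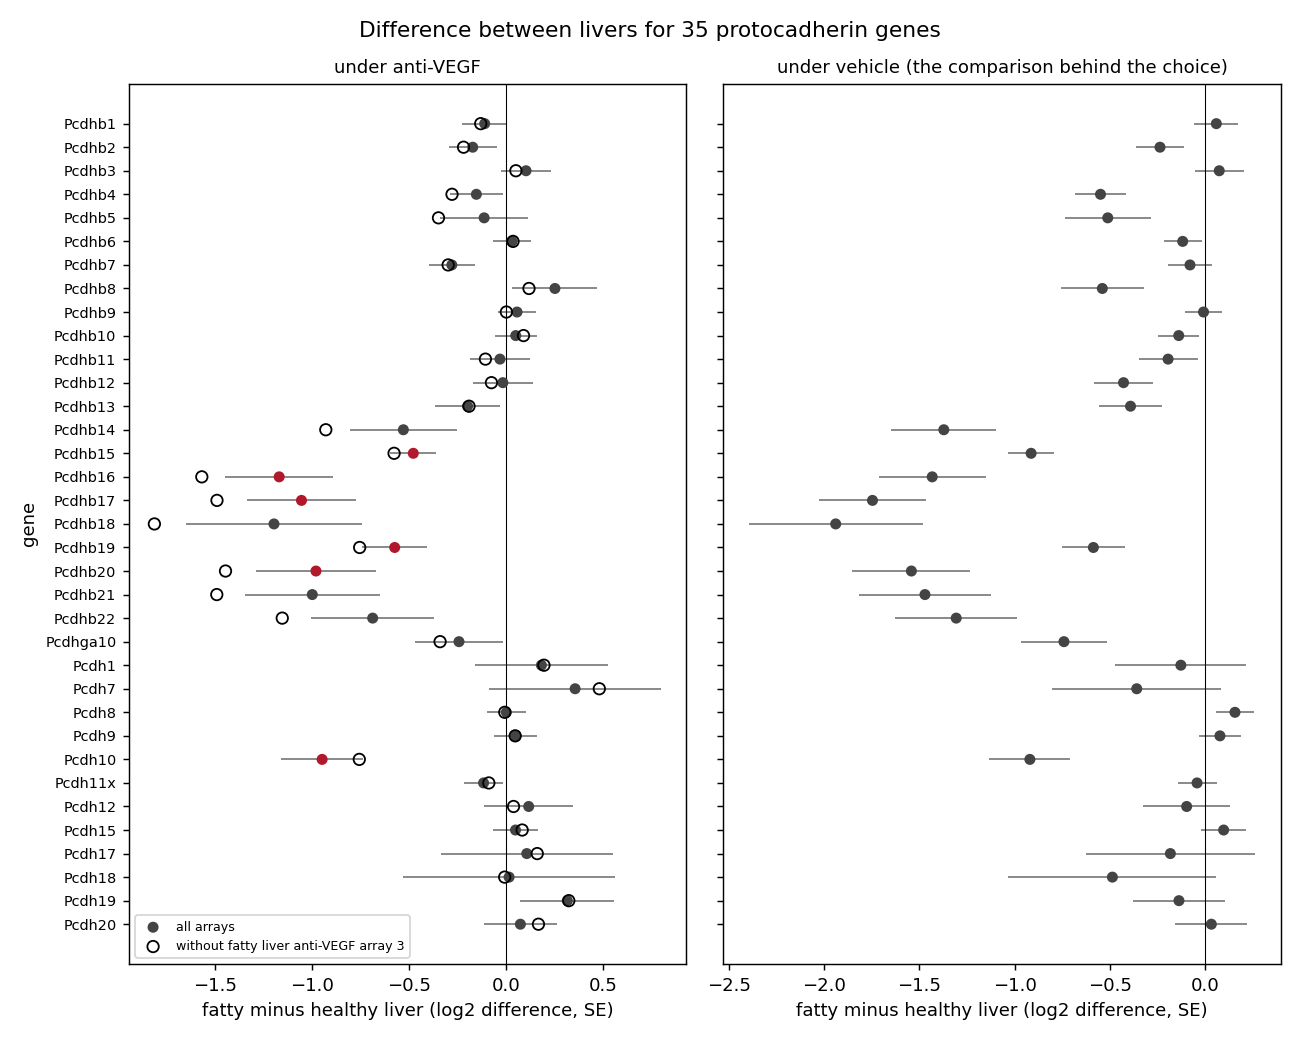
Log2 difference, fatty minus healthy liver, for each of 35 genes under anti-VEGF (left) and vehicle (right), with its standard error; red marks the 6 genes past an adjusted p of 0.05 under anti-VEGF, and open circles leave out fatty liver anti-VEGF array 3. Pcdhb14 to Pcdhb22 and Pcdh10 lie left of 0 in both panels, and the open circles of the 9 beta genes lie further left than the filled ones.

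Anti-VEGF was then compared with vehicle within each liver; these comparisons share arrays with those between livers. In healthy liver 0 of 35 genes passed in limma, as did 0 of all 22180 genes (background 0%). At an unadjusted p below 0.05, 4 were lower with anti-VEGF (Pcdhb4, Pcdhb14, Pcdhb15 and Pcdhb17) and 0 higher, against 3.75% and 3.28% of all genes, and array weights gave 2 past the adjusted threshold (1.63% of all genes). The smallest adjusted p was that of Pcdhb15, which read 4.74, 4.75 and 5.0 with anti-VEGF, against 5.23, 5.25 and 5.39 with vehicle, without overlap (difference -0.46, SE 0.12, limma adjusted p = 0.372). Pcdhb17 read 6.64, 6.67 and 6.49 with anti-VEGF, against 7.41, 7.33 and 7.41 with vehicle, a difference of -0.78 (SE 0.28, limma adjusted p = 0.604). Pcdhb18 averaged 6.28 ± 0.04 with anti-VEGF and 6.71 ± 0.49 with vehicle (SD, n = 3 each), a description because its vehicle arrays chose it. Without the Xist-high arrays, which left vehicle array 2 alone in that group, its difference changed sign to 0.13.

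By position of the arrays, 8 genes were lower with anti-VEGF than with vehicle in healthy liver without overlap (Pcdhb4, Pcdhb14, Pcdhb15, Pcdhb16, Pcdhb17, Pcdhb20, Pcdhb22 and Pcdhga10), against 8.69% of all genes, and Pcdh8 was higher (10.8%). The mean of the 9 late beta genes was 5.79, 5.86 and 5.80 with anti-VEGF, against 6.25, 6.08 and 6.40 with vehicle in healthy liver. The 3 arrays with anti-VEGF here were nearly identical, as were vehicle arrays 1 and 3, and vehicle arrays 1 and 3 were those high in Xist; the part of either in this difference was not tested.

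In fatty liver, 0 of 35 genes passed in limma between anti-VEGF and vehicle (background 0.00451%, 1 gene), and at an unadjusted p below 0.05 Pcdhb8 was higher with anti-VEGF (2.81% of all genes) and 0 genes were lower (3.08%). Pcdhb8 read 4.22, 4.97 and 4.995 with anti-VEGF, against 4.13, 4.53 and 3.97 with vehicle, with overlap. Pcdhb7 was lower without overlap (background 4.77%) and 0 genes were higher without overlap (3.91%). The mean of the 9 late beta genes was 4.51, 4.63 and 5.75 with anti-VEGF, against 5.02, 4.69 and 4.91 with vehicle in fatty liver, so that arrays 1 and 2 with anti-VEGF were below all 3 vehicle arrays and array 3 above them. Pcdhb18 averaged 5.08 ± 1.09 with anti-VEGF and 4.77 ± 0.49 with vehicle (SD, n = 3 each), a log2 difference of 0.31 that turned to -0.31 without array 3. The interaction of liver and treatment gave 0 of 35 in limma (background 0%), and at an unadjusted p below 0.05 Pcdhb8 and Pcdhb15 on the positive side (2.27% of all genes) and 0 on the negative side (3.25%).

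Another pattern crossed the groups. Pcdh1, Pcdh7, Pcdh12, Pcdh17, Pcdh18 and Pcdh19 were highest on single arrays, a set chosen after the values were seen. Pcdh18 read 4.84 on fatty liver vehicle array 2 and 6.25 on healthy liver vehicle array 2, and between 3.63 and 3.93 on the other 10 arrays. Pcdh17 read 4.70 and 5.50 on the same 2 arrays, and 3.57 to 4.26 elsewhere. Pcdh7, an adhesion protein known to take part in brain metastasis, read 4.84 on fatty liver anti-VEGF array 1, 4.80 on fatty liver vehicle array 2 and 5.83 on healthy liver vehicle array 2, and at most 4.24 elsewhere. Pcdh12, the endothelial member, was highest on fatty liver vehicle array 2 (5.06) and healthy liver vehicle array 2 (5.25).

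The mean of 10 endothelial genes was 7.01 on fatty liver anti-VEGF array 1, 7.31 on fatty liver vehicle array 2 and 8.63 on healthy liver vehicle array 2, against 5.40 to 5.97 on the other 9 arrays. The mean of 8 fibroblast genes was 8.61, 8.36 and 9.97 on the same 3 arrays, against 6.56 to 7.46 elsewhere. The 6 genes were all highest on healthy liver vehicle array 2, and fatty liver vehicle array 2 was among the 3 highest for each. On fatty liver anti-VEGF array 1, Pcdh1, Pcdh7 and Pcdh17 were among their 3 highest values and Pcdh12, Pcdh18 and Pcdh19 were not. The part of endothelial cells or fibroblasts in these levels was not tested. The mean of the 9 late beta genes was 4.51, 4.69 and 6.08 on these 3 arrays, on each the lowest of its group, and Pcdh10 read 5.05, 5.05 and 5.69. Pcdh8, Pcdh9, Pcdh11x, Pcdh15 and Pcdh20, genes known mainly from brain or, for Pcdh15, from the inner ear, were between 2.54 and 4.78 on all arrays.

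**Figure D4:**
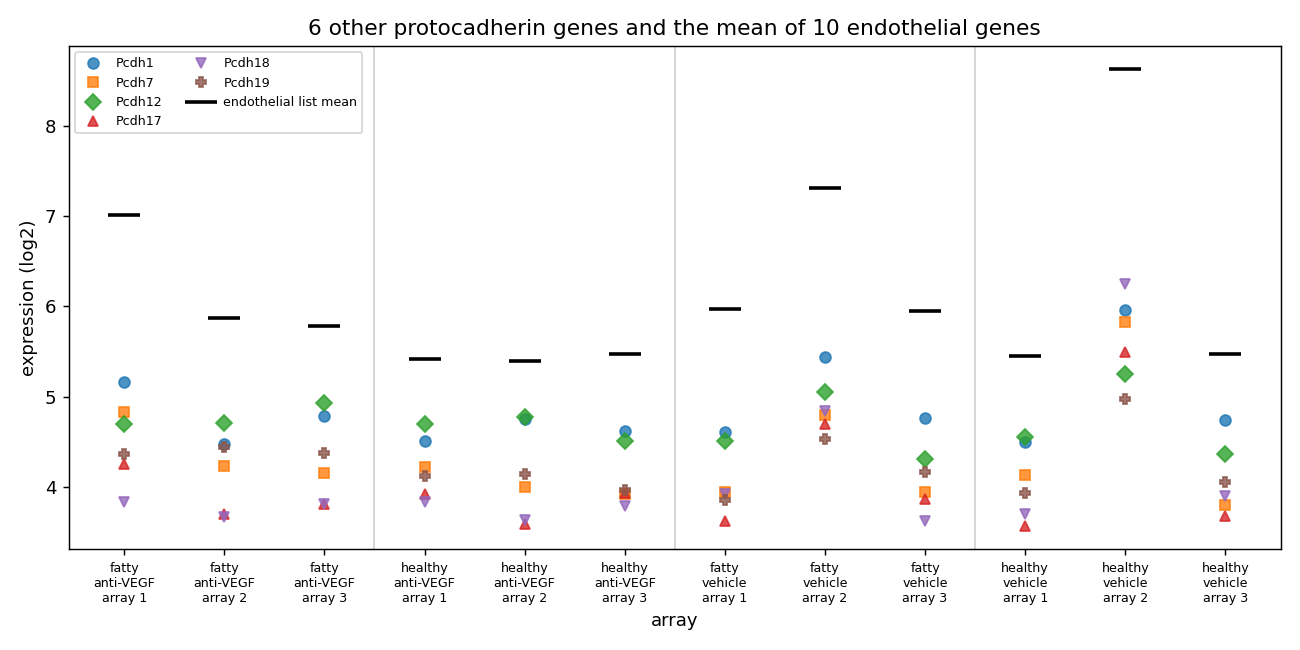
Expression (log2) of 6 non-clustered protocadherin genes on each of the 12 arrays, with a black bar for the mean of 10 endothelial genes. Both are highest on healthy liver vehicle array 2, where Pcdh18 reads 6.25 and the endothelial mean 8.63.

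The genes around the clusters were read from the order of RefSeq genes on GRCm38.p6, a check chosen after the values were seen. Of 23 neighbouring genes within 10 on each side or between the clusters, 19 were measured. Between fatty and healthy liver under anti-VEGF, 2 fell and 3 rose, against 14.9% and 10.8% of all genes, with a median log2 difference of -0.02. With the nearly identical arrays averaged 0 passed. Without fatty liver anti-VEGF array 3, 4 fell and 5 rose, where 20.7% of all genes fell and 32.6% passed in either direction. Hdac3, a histone deacetylase, differed by -0.40 (limma adjusted p = 0.0156) and Wdr55 by -0.42 (0.0487). Taf7, a subunit of the general transcription factor TFIID that lies between Pcdhb22 and the gamma genes, differed by 0.74 (limma adjusted p = 0.0326), opposite in sign to the late beta genes. Cd14, a monocyte receptor for bacterial lipopolysaccharide, differed by 2.89 and Gnpda1 by 0.66. The alpha cluster and most gamma genes had no row of their own: a row shared by 9 alpha symbols read 4.22 to 4.68 and a row shared by 9 gamma symbols 3.15 to 3.90 over the 12 arrays, and neither was counted. Also not counted were a row shared by Pcdhga10 and Gm19774 (11.50 to 11.81) and a row shared by Pcdh10 and 1700027H10Rik (3.12 to 3.64). On both of these rows fatty and healthy liver overlapped under either treatment. On their own rows, Pcdh10 did not overlap under either treatment and Pcdhga10 did not overlap under vehicle.

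Of 16 genes listed for chromatin control of the clusters, 1 rose and 3 fell in fatty against healthy liver under anti-VEGF, against 10.8% and 14.9% of all genes, with a median log2 difference of -0.11. Dnmt3a, a DNA methyltransferase, read 7.10, 7.11 and 7.16 in fatty liver, against 6.72, 6.42 and 6.48 in healthy liver, without overlap (difference 0.58, SE 0.10, limma adjusted p = 0.00224). Its relative Dnmt3b read 6.10, 6.19 and 6.36 in fatty liver, against 6.69, 6.87 and 7.01 in healthy liver, the opposite direction (difference -0.64, SE 0.14, limma adjusted p = 0.00607). Smc3, a cohesin subunit, differed by -0.53 (limma adjusted p = 0.0202) and Trim28, a corepressor, by -0.40 (0.0411). Without fatty liver anti-VEGF array 3, 7 fell and 1 rose, where 20.7% of all genes fell and 32.6% passed in either direction. Ctcf itself did not pass with all arrays, with 9.10, 9.08 and 9.53 in fatty liver, against 9.31, 9.36 and 9.30 in healthy liver.

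Of 15 measured genes listed as protein partners and processing enzymes of protocadherins, 4 rose and 4 fell in the same comparison, against the same 10.8% and 14.9% of all genes, with a median log2 difference of -0.01. Cyfip2 and Nckap1 are subunits of the WAVE complex, to which the tail of Pcdh10 binds. Cyfip2 read 9.24, 9.08 and 8.69 in fatty liver with anti-VEGF, against 6.44, 6.43 and 6.44 in healthy liver with anti-VEGF, and Nckap1 read 9.22, 9.17 and 9.78 in fatty liver, against 10.22, 10.16 and 10.29 in healthy liver. The 2 subunits thus went in opposite directions (differences of 2.57 and -0.83, limma adjusted p of 0.000145 and 0.00359). Gja1, a gap junction protein, differed by -0.78 (limma adjusted p = 0.00106) and Ptk2b, a kinase bound by the cytoplasmic tails of alpha and gamma protocadherins, by 0.48 (0.00293). With the nearly identical arrays averaged, 0 genes of either list passed.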

How the data were processed

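Total RNA of 12 tumour samples, which the labels call biological replicates, was amplified, labelled with biotin and hybridised to Affymetrix whole-transcript arrays, per the labels' protocols. The log2 expression values are those the authors deposited, 1 column per array; Affymetrix Expression Console is named in the submitters' processing notes, and the sources used here give no normalization, centring or genome build. That the scale is log2 was taken from how far the values range, and the column medians were 4.88 to 4.99. The number of arrays limits the precision.

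Of 41345 probe rows, 23521 had 1 symbol, 1814 several and 16010 none; the brightest row was used for each of 1082 genes with several rows. All 22180 genes entered a model with 1 mean per group in limma 3.58.1 (R 4.3.3), with 8 residual degrees of freedom and Benjamini-Hochberg adjustment over all genes at 0.05. No filter on low values was applied. Arrays were grouped by their labels. Genes named are those above the limit, those past the threshold in a comparison, and Pcdhb18, and from each other gene list at most the 4 with the smallest p. Exceptions, named after their values were seen, are the genes of single-array patterns, of unadjusted or non-overlapping counts, Ctcf, and the neighbouring genes. The family and the lists were chosen with earlier results of these data known. On simulated data for fatty minus healthy liver under anti-VEGF over 22180 genes, the fit recovered 77% of log2 changes of 1 and 96% of log2 changes of 2, with 11 false calls. Deviations from group means at equal replicate numbers correlated in all 3 pairs only under vehicle (0.407, 0.637 and 0.415). Arrays 1 and 3 of each vehicle group were nearly identical, so these values depend on each other and cannot show a pairing. The labels state no pairing, and a replicate block changed no count there. Other normalizations, filters, array weights, a replicate block, averaged arrays and left-out arrays were tried as alternatives.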

Additional observations from a re-analysis of the deposited data

How the results depend on the processing

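For fatty minus healthy liver under anti-VEGF, where 6 protocadherin genes fell, array weights gave 10 (40.3% of all genes passed), averaging nearly identical arrays 0 (1.82%), leaving out the vehicle arrays high in Xist 3 (21.0%), and leaving out fatty liver anti-VEGF array 3 with healthy liver vehicle array 2, a choice made after seeing the data, 11 (35.7%), against 14.9% lower and 10.8% higher in the fit of all arrays. Leaving out 1 array each gave 2 to 10, the lowest lacking fatty liver anti-VEGF array 2 (16.7% of all genes) and the highest lacking array 3 (32.6%). For anti-VEGF minus vehicle in healthy liver, where 0 passed, array weights gave 2 (1.63% of all genes), leaving out the 2 arrays 1 (0.117%), and leaving out 1 array each 0 to 1. Leaving out the Xist-high arrays left array 2 alone in each vehicle group. No count of that fit is given for comparisons that use vehicle arrays. In fatty liver and for the interaction the count was 0 in every other alternative. For the livers under vehicle, a description, the 12 became 1 with averaged arrays (2.08% of all genes), and 10 to 14 without 1 array each. With a replicate block the counts were 7 under anti-VEGF between livers, 12 under vehicle between livers, and 0 for the treatment in healthy liver, in fatty liver and for the interaction. The log2 difference of Pcdhb18 between treatments changed sign in healthy liver without the Xist-high arrays (0.13, against -0.43), and in fatty liver with array weights (-0.11, against 0.31) and with the 2 arrays left out (-0.31); leaving out 1 array each gave -0.31 to 0.73 in fatty liver, with -0.31 lacking anti-VEGF array 3. Leaving out the 3 arrays high in endothelial genes was also chosen after seeing the data and moved no count by over 1.5 times. Under another scaling the median of all genes moved by at most 0.0803. The cause of these changes was not tested; averaging and leaving out arrays also leave fewer samples. Of the family, 18 of 35 genes were above the limit on 0 arrays. When only genes with a mean above the limit were fitted, 47.6% of them passed between livers under anti-VEGF and 51.3% under vehicle, in either direction. The shares of all genes given above include the dimmer genes.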

Other observations

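Other related cadherin groups were measured in the same tumours. Of 12 classical cadherins, 1 rose and 1 fell in fatty against healthy liver under anti-VEGF, where 10.8% and 14.9% of all genes did. Cdh1, the epithelial cadherin, read 8.03, 8.12 and 5.97 in fatty liver, against 5.88, 5.66 and 5.75 in healthy liver, with array 3 of fatty liver just above the healthy liver range (log2 difference 1.61, SE 0.46, limma adjusted p = 0.0267). Cdh13, a cadherin without a cytoplasmic tail, read 9.65, 9.72 and 10.32 in fatty liver, against 10.86, 10.77 and 10.77 in healthy liver (difference -0.90, SE 0.19, limma adjusted p = 0.00504). Of 9 Fat, Dachsous and Celsr genes, 1 fell: Fat1, a very large cadherin, read 9.10, 9.16 and 9.50 in fatty liver, against 10.23, 10.30 and 10.27 in healthy liver (difference -1.01, SE 0.12, limma adjusted p = 0.000198). Without fatty liver anti-VEGF array 3, 2 of these 9 fell and 1 rose. In that fit 20.7% of all genes fell and 32.6% passed in either direction. With the nearly identical arrays averaged, 0 genes of either group passed. The part of other cells in these differences was not tested.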
